A study of Mus musculus with 6 samples.

Results

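Solute carriers are the membrane proteins that move amino acids, sugars, vitamins, nucleosides, metals, inorganic ions and mitochondrial metabolites down or against their gradients, without hydrolysing ATP themselves. Most span the membrane many times, some work only with an accessory chain, and families are numbered by sequence. The liver relies on them for the uptake of nutrients, bile salts and drugs, and tumour cells for the supply of amino acids, folate and zinc. Described here are 182 of the 55573 genes in the table: protein-coding genes whose symbol begins with Slc and a number and whose counts summed to at least 150 over 6 libraries. Of 376 such genes, 81 had no count, 107 had fewer than 150 counts and 188 passed. Of these 188, 6 were set aside by name, namely Slc7a5, Slc7a11, Slc2a1, Slc16a3, Slc22a18 and Slc38a4. Slc43a3 was added by name because of its behaviour in the knockout, but it passed the threshold as well. The members just inside the threshold were Slc4a4, with 184 counts in all, and Slc1a7, with 186. Just outside lay Slc7a15 and Slc5a5, with 140 counts each. The symbol also catches 4 genes that do not encode transporters: the scaffolds Slc9a3r1 and Slc9a3r2, Slc4a1ap and Slc7a6os.

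The cells were Hepa1-6, an established line from a mouse liver tumour, cultured in DMEM with serum. In 3 libraries the gene for the nuclear matrix protein Matrin 3, Matr3, was disrupted by CRISPR/Cas9; the other 3 are wild type. The labels do not say whether the knockout was a single clone or a pool, or whether libraries came from separate cultures, so p-values here reflect how far these libraries differ from each other, possibly for technical reasons alone. The comparison asks which solute carrier transcripts differ in the knockout.

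Library totals lay between 20736570 and 30794032 counts. Wild-type library 1 had the smallest total but the most genes with counts, 23440, against 20450 to 21217 in the other libraries. Matr3 was at 76.0, 86.1 and 75.3 CPM (counts scaled to a common library total) in knockout libraries 1 to 3, beside 129, 125 and 134 CPM in wild-type ones, so it was lower but not lost. Knockout library 2 stood apart: deviations from the mean followed GC content, across genes, at -0.27 in it and at 0.26 in the other knockout libraries, against -0.16 to -0.03 in the wild type. Among the 182 members, knockout library 2 was the farthest from its group's median for 103 and wild-type library 1 for 124. The defining hepatocyte markers were absent: Ttr was listed at 0, and Alb and Hnf4a had 1 count each over the 6 libraries. Of 10 hepatocyte and hepatoma markers 9 had counts, and their sum, carried by Krt8 and Krt18, was 1036 to 1098 CPM in knockout libraries, beside 594 to 704 CPM in wild-type ones. Afp went the other way, at 2.14 to 3.55 CPM against 4.57 to 5.06 CPM. All 4 bile duct markers had counts; their sum, carried by Krt19, was 645 to 684 CPM against 287 to 316 CPM, with Krt7 at 1 count in all. Fibroblast and stellate markers (7 of 7 with counts) summed to 21.3 to 29.7 CPM against 16.7 to 19.9 CPM, a sum carried by Col1a1. Pdgfrb went the other way, at 1.08 to 1.34 CPM against 2.24 to 3.78 CPM, as did Col1a2, at 0.215 to 0.317 CPM against 0.373 to 0.524 CPM. Endothelial markers (4 of 4) summed to 0.844 to 1.53 CPM against 2.85 to 3.56 CPM, and leukocyte markers (4 of 6, Adgre1 and Cd3e at 0) to 12.4 to 16.0 CPM against 10.8 to 11.9 CPM. The endothelial difference lay in Cdh5, and the leukocyte sum was almost all Cd68. The part of these shifts in the results below was not tested. In bulk RNA, fewer cells of a type and less RNA per cell cannot be told apart.

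The 182 members were sorted into groups by what they transport, and the highest single genes were mostly mitochondrial carriers. Genes set aside by name were not ranked. Levels are given as FPKM, counts divided by gene length and library size, which allows comparison between genes. The members' mean over the 6 libraries ran from 0.104 FPKM (Slc4a4, a sodium bicarbonate cotransporter) to 253 FPKM (Slc25a5, an ADP/ATP exchanger), with a median of 5.14 FPKM. At least 10 FPKM was reached by 55 members and at least 100 by 3, while 23 stayed under 1. The mitochondrial carriers had a group median of 6.44 FPKM. Among transporters, the nucleotide sugar and vitamin groups had higher medians, at 8.80 and 7.09 FPKM. Of the 5 highest, 4 were mitochondrial: Slc25a5 at 253 ± 20.8, the second ADP/ATP exchanger Slc25a4 at 162 ± 16.0, Slc25a39 at 111 ± 11.5 and the phosphate carrier Slc25a3 at 96.1 ± 10.2 FPKM (SD, n = 6). Reads of Slc25a5 and Slc25a4, which have many processed copies in the genome, are uncertain in their assignment. The amino acid group was led by Slc3a2, the heavy chain that carries several amino acid exchangers to the surface, at 92.4 ± 22.9 FPKM, and the sugar and monocarboxylate group by the lactate and pyruvate transporter Slc16a1 at 85.7 ± 6.08 FPKM. The metal ion group was led by the zinc importer Slc39a1 at 74.1 ± 4.45 FPKM, and the nucleoside group by Slc29a1 at 45.2 ± 4.53 FPKM. The leaders of the remaining groups were Slc35a4 among the nucleotide sugar transporters (41.1 ± 4.78 FPKM), the heme transporter Slc48a1 (40.7 ± 5.51 FPKM), the fatty acid transporter Slc27a1 (20.2 ± 3.95 FPKM), the phosphate transporter Slc20a2 (15.4 ± 0.488 FPKM), the carnitine transporter Slc22a5 (9.68 ± 2.22 FPKM) and the creatine transporter Slc6a8 (6.73 ± 0.575 FPKM). Carriers typical of hepatocytes, named outside the naming rule, were outside the set: the bile salt importer Slc10a1 had 78 counts over 6 libraries and the glucose transporter Slc2a2 had 0.

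**Figure D1:**
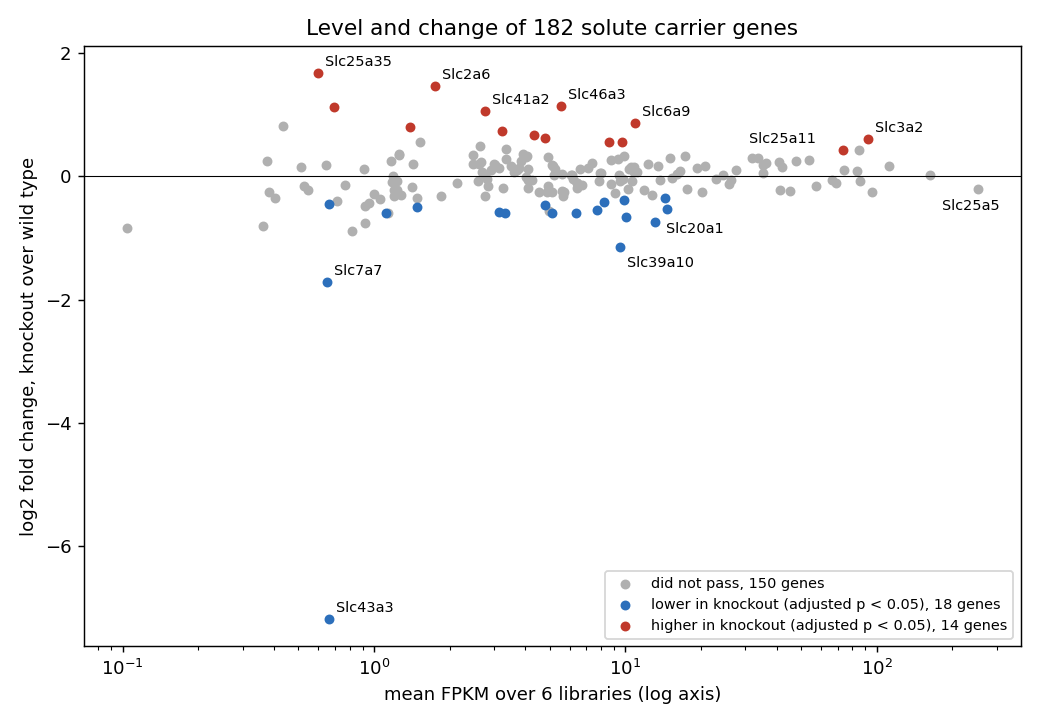
Mean FPKM over the 6 libraries (log axis) against the log2 fold change of knockout over wild type for the 182 genes, each point a gene, coloured by call. Slc25a5, at the right edge, stood at -0.20, and Slc43a3 lay alone at -7.17.

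As a set, solute carriers changed about as often as other genes. Of the 182 members, all of which passed the expression filter, 14 rose, 18 fell and 150 did not pass (edgeR quasi-likelihood F test, with p adjusted by Benjamini-Hochberg over all tested genes and calls under 0.05). That is 17.6% of the members, against 15.2% of the 14842 genes tested and 17.5% of the 11972 protein-coding genes among them. By direction, 7.69% of the members rose, beside 7.69% of all tested genes, and 9.89% fell, beside 7.48%. Scaled by library totals alone, 19 rose and 16 fell, where 8.89% of all tested genes rose and 7.20% fell. The count includes Slc43a3, whose difference was a reason for its choice. The members' median log2 fold change was 0.01, against -0.02 for all tested genes. Called changes of at least 2-fold numbered 8, or 4.40% of the members, against 3.80% of all tested genes. Every knockout library lay on 1 side of every wild-type library in 73 members, or 40.1%, against 36.6% of all tested genes; 39 were higher and 34 lower in the knockout, where the shares of all genes were 18.3% and 18.4%. Those 73 include all 32 called members and 41 others. An unadjusted p under 0.05 was found in 56 members, beside 31.0% of genes. Of the 20 highest by FPKM, 2 were called, Slc3a2 and Slc25a11, both described further on.

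In most alternative fits the members' share was near that of all genes. It lay farthest above with no filter on low counts (16.5% against 10.6%) and without wild-type library 1 (17.6% against 13.5%). Leaving out knockout library 1, 2 or 3 called 7.14%, 27.5% and 6.04% of members, where 5.62%, 28.1% and 5.43% of all genes were called. Leaving out wild-type library 1, 2 or 3 called 17.6%, 7.69% and 6.04% of members, beside 13.5%, 6.07% and 5.28% of genes. Without knockout library 2 and wild-type library 1 together, 50.5% of members and 51.0% of genes were called (25.3% of genes higher, 25.7% lower). DESeq2 called 20.9% of members and 19.6% of genes, and limma voom 16.5% and 15.0%. With limma on log2(FPKM + 1), which tested 176 of the members, the shares were 10.8% and 11.5%, with 5.12% of genes lower. Other size factors (17.6% of members, 15.3% of genes), no filter on low counts (16.5% and 10.6%), a mean of at least 1 CPM (18.1% and 17.3%) and protein-coding genes alone (21.4% and 21.8%) changed which genes enter the adjustment or how libraries are scaled. With the replicate number as a block, 12.6% of members and 10.8% of genes (5.48% lower) were called. Removing each library's GC trend gave 21.4% and 20.2%, and 17.0% and 16.4% with the block added. At an adjusted p under 0.01 edgeR called 10 members, beside 4.86% of all genes.

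**Figure D2:**
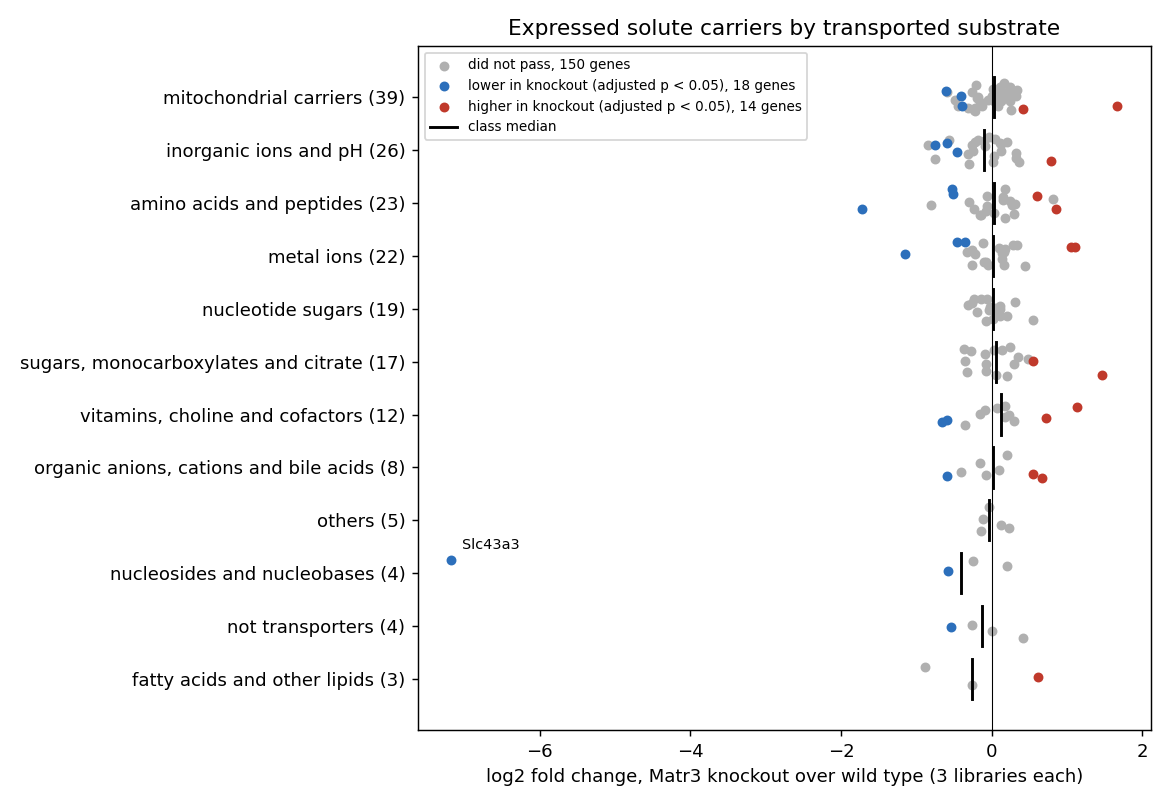
Log2 fold change of knockout over wild type for each of the 182 members (points), grouped by what they transport, with the number of members in brackets and a bar at each group's median. Called rises and called falls both occur among amino acid, metal, inorganic ion, organic ion, vitamin and mitochondrial carriers; the 19 nucleotide sugar transporters and the 5 others hold no coloured point.

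Slc43a3, which encodes an equilibrative transporter of purine nucleobases, was nearly silent in the knockout. It had 1 count in each of the 3 knockout libraries and 144, 138 and 154 counts in the wild-type libraries. That is 0.0431, 0.0319 and 0.0352 CPM against 6.72, 5.17 and 5.86 CPM, so the groups lay far apart. Over the 3 libraries of each group, 436 counts stood against 3, a level 162-fold higher in the wild type with an exact 95% counting interval of 55.1 to 789, which covers counting error only. Since the gene was chosen for this difference, it is given as a description, with no test. Slc43a3 (ENSMUSG00000027074) lies on the plus strand of chromosome 2 from 84766923 to 84788853, as the table gives it. Its tested neighbours differed far less. Of 10 tested genes within 250 kb, a distance chosen after the values were seen, 2 fell and 0 rose by edgeR. Over all tested genes 7.48% fell and 7.69% rose. The log2 fold changes of the 10 neighbours ran from -0.58 to 0.50. The nearest of them, P2rx3, had a log2 fold change of 0.50 and did not pass, and Ssrp1 was at 519 ± 13.1 CPM in the knockout, beside 516 ± 28.4 CPM (SD, n = 3 each). The family member Slc43a2, a transporter of large neutral amino acids, was at 6.85 ± 0.106 CPM in the knockout, beside 6.07 ± 1.02 CPM, and did not pass. Among the other nucleoside carriers, Slc29a2 fell from 11.4 ± 1.97 to 7.60 ± 0.817 CPM (log2 fold change -0.58, edgeR adjusted p = 0.0485). Its call ended when any single library was left out (adjusted p from 0.0523 to 0.165). Slc29a1, the far more abundant equilibrative transporter, was at 174, 156 and 169 CPM in knockout libraries, beside 188, 198 and 205 CPM in wild-type ones, without overlap but without passing (-0.24, edgeR adjusted p = 0.0964).

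Among 23 transporters of amino acids and peptides, 2 rose, 3 fell and 18 did not pass, with a group median of 0.03. The counts here and in the groups below stand beside 7.69% of all tested genes that rose and 7.48% that fell. An unadjusted p under 0.05 was found in 31.0% of all tested genes. Slc6a9, the glycine transporter GlyT1, rose 1.81-fold with hardly any spread. It was at 73.4, 73.1 and 71.3 CPM in knockout libraries, beside 39.4, 40.5 and 40.1 CPM in wild-type ones, a log2 fold change of 0.86 (SE 0.0765, edgeR adjusted p = 0.000685). No wild-type library came near a knockout library. Slc3a2 rose 1.51-fold, with 425, 338 and 418 CPM against 252, 280 and 247 CPM (log2 fold change 0.60, SE 0.114, edgeR adjusted p = 0.0120). Knockout library 2 was the lowest of its group and still above each wild-type library.

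Slc7a7 and Slc7a6, light chains that exchange cationic for neutral amino acids in complex with Slc3a2, fell. Slc7a7, the y+LAT1 chain, was at 0.689, 1.21 and 1.09 CPM in the knockout, whereas wild-type libraries had 3.31, 3.82 and 2.85 CPM. It fell 3.30-fold (log2 fold change -1.72, SE 0.289, edgeR adjusted p = 0.00751), at a level under 1 FPKM in both groups. Slc7a6, the y+LAT2 chain, was at 51.3, 61.9 and 51.9 CPM against 74.6, 82.7 and 80.5 CPM and fell by 0.53 on the log2 scale (edgeR adjusted p = 0.0127). The aromatic amino acid transporter Slc16a10 fell from 12.8 ± 1.62 to 9.01 ± 0.683 CPM (-0.51, edgeR adjusted p = 0.0456). Slc7a6, Slc16a10 and the other called genes outside the naming rule (Slc8a1, Slc39a6, Slc41a1, Slc41a3, Slc25a12 and Slc25a32) were named after their values were seen, as were Slc25a3, Slc25a4, Slc25a13, Slc25a39, Slc43a2, Slc38a2, Slc1a5, Slc7a1, Slc30a4, Slc22a21, Slc35d2 and the neighbours P2rx3, Ssrp1, Irf1 and Pdlim4. The main glutamine and small neutral amino acid transporters did not pass: Slc38a2 was at 573 ± 81.0 CPM in knockout libraries, beside 599 ± 25.2 CPM in wild-type ones, and Slc1a5 was at 227 ± 28.9 and 253 ± 58.3 CPM in that order (SD, n = 3 each). The cationic amino acid transporter Slc7a1 was at 433 ± 12.1 and 382 ± 31.0 CPM and did not pass either. The call of Slc3a2 ended on leaving out any 1 of knockout libraries 1 and 3 and wild-type library 3, and those of Slc7a6 and Slc16a10 on leaving out any 1 of knockout libraries 1 and 3 and wild-type libraries 2 and 3 (edgeR adjusted p from 0.0551 to 0.196). Strandedness is not stated, so reads of Slc6a9 and of B4galt2, and of Slc7a7 and of Oxa1l, and below of Slc25a11 and Rnf167, of Slc39a6 and Elp2 and of Slc20a1 and Gm4430, which overlap on opposite strands, cannot be told apart.

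Slc7a6os, a gene named for its place opposite Slc7a6 and not a transporter, fell beside it. It lies 2010 bases away on chromosome 8 and was at 26.2, 26.0 and 27.5 CPM in the knockout, whereas wild-type libraries had 47.1, 34.2 and 35.0 CPM (log2 fold change -0.54, edgeR adjusted p = 0.0315). Its call ended on leaving out any 1 of knockout libraries 1 and 3 and wild-type libraries 2 and 3 (adjusted p from 0.0544 to 0.115), and wild-type library 1 was the highest of all. The scaffold Slc9a3r1, which tethers transporters to the cortical actin, was at 84.9 ± 17.4 FPKM over the 6 libraries (SD, n = 6) and did not pass (0.42, edgeR adjusted p = 0.0681).

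Folate carriers moved in both directions. The vitamin, choline and cofactor group held 12 members, of which 2 rose, 2 fell and 8 did not pass. Slc19a1, the reduced folate carrier of the plasma membrane, was at 39.2, 34.3 and 35.8 CPM in knockout libraries, beside 54.3, 59.1 and 59.5 CPM in wild-type ones. It fell 1.58-fold (log2 fold change -0.66, SE 0.0913, edgeR adjusted p = 0.00349), though 8825 bases of it overlap Col18a1 on the opposite strand. Slc46a1, the proton-coupled folate transporter, was at 13.9, 10.8 and 12.7 CPM against 6.02, 8.16 and 8.33 CPM and rose by 0.73 (edgeR adjusted p = 0.0251). Slc25a32, the mitochondrial folate and FAD carrier, fell from 57.3 ± 4.04 to 43.0 ± 5.22 CPM (-0.41, edgeR adjusted p = 0.0411). Per length, the level of Slc19a1 was 12.3 FPKM in the wild type, where Slc46a1 was at 2.42 FPKM, and 7.85 FPKM in the knockout, where Slc46a1 was at 4.05 FPKM. Slc46a3, a lysosomal member of the Slc46 family, rose 2.19-fold, with 16.3, 22.1 and 17.7 CPM against 9.15, 7.71 and 8.83 CPM (log2 fold change 1.13, SE 0.150, edgeR adjusted p = 0.00309). The choline transporter-like gene Slc44a2 fell with very little spread, at 45.1, 44.9 and 42.4 CPM against 67.3, 65.9 and 66.1 CPM (-0.59, SE 0.0782, edgeR adjusted p = 0.00307). The call of Slc46a1 ended on leaving out any 1 of knockout libraries 1 and 3 and wild-type libraries 2 and 3, and that of Slc25a32 also on leaving out wild-type library 1 (edgeR adjusted p from 0.0623 to 0.195).

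Slc39a10 and Slc39a6 among the zinc importers fell, and the magnesium carriers split. Of 22 metal ion transporters, 2 rose, 3 fell and 17 did not pass. Slc39a10, a zinc importer of the plasma membrane, was at 33.7, 42.7 and 32.0 CPM in the knockout, whereas wild-type libraries had 66.5, 87.1 and 87.3 CPM. It fell 2.22-fold (log2 fold change -1.15, SE 0.149, edgeR adjusted p = 0.00287), and the highest knockout library lay well under the lowest wild-type library. Slc39a6, its close relative and known partner in a zinc-transporting complex, was at 51.4 ± 2.01 CPM in the knockout against 65.6 ± 6.89 CPM (SD, n = 3 each) and fell by 0.35 on the log2 scale (edgeR adjusted p = 0.0482). The other 7 tested members of the Slc39 family did not pass by edgeR, where DESeq2 called 3 of the 9 and 19.6% of all genes. The 6 members of Slc30, most of which remove zinc from the cytosol, did not pass either (0 of 6 by edgeR and by each other tool, that is DESeq2, voom and limma on FPKM, and 0 of 6 at an unadjusted p under 0.05). Over all tested genes edgeR called 15.2%, and 31.0% had an unadjusted p under 0.05. Over the 18 alternative fits up to 4 of the 6 Slc30 members were called, where 5.28% to 51.0% of all genes were. DESeq2, voom and limma on FPKM called 19.6%, 15.0% and 11.5% of all genes. The most abundant of these, Slc30a4, was at 366 ± 33.5 CPM in knockout libraries, beside 394 ± 40.2 CPM in wild-type ones (SD, n = 3 each).

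All 3 members of the Slc41 family of magnesium carriers were called, beside 15.2% of all tested genes. Slc41a2 rose 2.08-fold, with 19.5, 22.5 and 17.8 CPM against 9.75, 10.6 and 8.45 CPM (log2 fold change 1.05, SE 0.140, edgeR adjusted p = 0.00308). Slc41a3 rose at a low level, with 3.27, 2.14 and 2.88 CPM against 0.933, 1.46 and 1.41 CPM (1.11, edgeR adjusted p = 0.0385). Slc41a1, the sodium-dependent magnesium exporter, fell from 27.3 ± 1.69 to 19.8 ± 1.95 CPM (-0.47, edgeR adjusted p = 0.0281). Per length, the levels of Slc41a1 and Slc41a2 were 5.53 and 1.78 FPKM in the wild type, and 4.03 and 3.73 FPKM in the knockout. The calls of Slc39a6, Slc41a1 and Slc41a3 ended on leaving out any 1 of knockout libraries 1 and 3 and wild-type libraries 2 and 3, those of both Slc41 genes also on leaving out wild-type library 1 (edgeR adjusted p from 0.0521 to 0.210).

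Of 26 transporters of inorganic ions and protons, 1 rose, 3 fell and 22 did not pass. Slc20a1, a sodium-phosphate cotransporter that also serves gammaretroviruses as a receptor, was at 52.8, 60.1 and 52.1 CPM in the knockout, whereas wild-type libraries had 97.0, 89.9 and 90.0 CPM. It fell 1.68-fold (log2 fold change -0.75, SE 0.0915, edgeR adjusted p = 0.00251). Its paralogue Slc20a2 did not pass and differed little between the groups (-0.04, edgeR adjusted p = 0.777). Slc4a11, a proton-conducting member of the bicarbonate transporter family, fell from 20.1 ± 2.32 to 13.3 ± 1.23 CPM (-0.59, edgeR adjusted p = 0.0195), and the sodium-calcium exchanger Slc8a1 from 14.5 ± 1.25 to 10.6 ± 0.528 CPM (-0.45, edgeR adjusted p = 0.0387). Slc9a9, an endosomal sodium-proton exchanger, rose from 5.81 ± 0.748 to 10.0 ± 2.07 CPM (0.79, edgeR adjusted p = 0.0264; SD, n = 3 each). The 6 members of Slc12, the cation-chloride cotransporters, did not pass (0 of 6 by edgeR and by the other tools, 1 of 6 at an unadjusted p under 0.05). Up to 4 of the 6 were called over the 18 alternative fits, where 5.28% to 51.0% of all genes were. DESeq2, voom and limma on FPKM called 19.6%, 15.0% and 11.5% of all genes. Over all tested genes edgeR called 15.2%, and 31.0% had an unadjusted p under 0.05. The call of Slc9a9 ended on leaving out any 1 of knockout library 3 and wild-type libraries 2 and 3, and those of Slc4a11 and Slc8a1 without these or knockout library 1, that of Slc8a1 also on leaving out wild-type library 1 (edgeR adjusted p from 0.0527 to 0.179). With each library's GC trend removed, the calls of Slc8a1 and Slc25a11 ended too (edgeR adjusted p = 0.0834 and 0.0516).

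Of 39 mitochondrial carriers, 2 rose, 3 fell and 34 did not pass, with a median of 0.03. Slc25a11, which swaps oxoglutarate for malate in the malate-aspartate shuttle, was at 179, 178 and 179 CPM in knockout libraries, beside 117, 137 and 147 CPM in wild-type ones (log2 fold change 0.42, SE 0.102, edgeR adjusted p = 0.0290). Slc25a12, an aspartate-glutamate carrier of the shuttle, fell from 82.4 ± 7.99 to 63.0 ± 6.17 CPM (-0.39, edgeR adjusted p = 0.0480). The other such carrier, Slc25a13, did not pass. The glutamate carrier Slc25a22 was at 28.5, 19.2 and 25.6 CPM against 41.9, 33.8 and 35.8 CPM and fell by 0.60 on the log2 scale (edgeR adjusted p = 0.0369). Slc25a35, a carrier of low level, rose 3.17-fold with 4.39, 3.03 and 2.64 CPM against 0.840, 1.53 and 0.761 CPM (1.67, SE 0.352, edgeR adjusted p = 0.0178). The carriers of highest level did not pass: Slc25a5 was at 389, 388 and 388 CPM against 427, 447 and 467 CPM (-0.20, edgeR adjusted p = 0.132) and Slc25a3 at 486 ± 7.63 against 584 ± 31.2 CPM (-0.27, edgeR adjusted p = 0.0713). On log2(FPKM + 1) limma called 0 of the mitochondrial carriers, beside 11.5% of all genes. DESeq2 called 6 of these carriers, beside 19.6% of all genes. By edgeR 11 had an unadjusted p under 0.05, beside 31.0% of all tested genes. The call of Slc25a35 ended without knockout library 1 or wild-type library 3, and those of Slc25a11, Slc25a12 and Slc25a22 on leaving out any 1 of knockout libraries 1 and 3 and wild-type libraries 2 and 3, that of Slc25a22 also on leaving out wild-type library 1 (edgeR adjusted p from 0.0506 to 0.222).

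Among 17 carriers of sugars, monocarboxylates and citrate, 2 rose, 0 fell and 15 did not pass. At an unadjusted p under 0.05, 4 were higher and 1 lower by edgeR, while each of the other tools (DESeq2, voom, limma on FPKM) called 2. Over all genes those tools called 19.6%, 15.0% and 11.5%, in that order. Slc2a6, the facilitative hexose transporter GLUT6, was at 7.28, 7.31 and 10.2 CPM in knockout libraries, beside 2.66, 2.99 and 3.31 CPM in wild-type ones. It rose 2.75-fold (log2 fold change 1.46, SE 0.198, edgeR adjusted p = 0.00326), at 2.57 FPKM against 0.925 FPKM. Slc37a3, of the sugar-phosphate exchanger family, was at 56.2, 51.2 and 59.1 CPM against 36.4, 41.9 and 35.2 CPM and rose by 0.55 (edgeR adjusted p = 0.0111). Slc16a1 was at 358, 386 and 365 CPM in knockout libraries, beside 354, 408 and 411 CPM in wild-type ones; its groups overlapped. In the small lipid group the fatty acid transporter Slc27a4 rose from 16.7 ± 1.49 to 25.7 ± 2.15 CPM (0.61, edgeR adjusted p = 0.0118), while the more abundant Slc27a1 did not pass (-0.26, edgeR adjusted p = 0.325). The calls of Slc37a3 and Slc27a4 ended without knockout library 3 or wild-type library 3 (edgeR adjusted p from 0.0537 to 0.0623).

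Of 8 carriers of organic anions, cations and bile acids, 2 rose, 1 fell and 5 did not pass, and the risers are neighbours on chromosome 11. Slc22a5, the carnitine transporter OCTN2 (53755368 to 53782486, minus strand), stood at 33.8, 38.3 and 34.3 CPM in the knockout, whereas wild-type libraries had 25.8, 20.5 and 26.2 CPM (log2 fold change 0.55, SE 0.122, edgeR adjusted p = 0.0206). Slc22a4, the ergothioneine transporter OCTN1 (53873949 to 53918916, minus strand), stood at 13.5, 13.3 and 13.9 CPM against 10.2, 8.12 and 7.42 CPM (0.66, SE 0.146, edgeR adjusted p = 0.0205). The paralogue between them, Slc22a21, was at 11.9, 12.0 and 11.4 CPM against 14.1, 8.31 and 8.41 CPM, with overlapping groups, and did not pass (0.20, edgeR adjusted p = 0.553). The 3 genes are close paralogues, and reads shared between them could blur their values. Irf1, an interferon regulatory factor gene 86167 bases from Slc22a5, rose as well (0.62, edgeR adjusted p = 0.00733), while Pdlim4, on the far side of Slc22a4, fell (-1.91, edgeR adjusted p = 0.0101). Of the 10 tested genes within 250 kb of Slc22a5, 2 rose (Irf1 and Slc22a4), 1 fell and the others did not pass. Over all tested genes 7.69% rose and 7.48% fell, and this distance too was chosen after the values were seen. Slc22a15, a transporter of zwitterions, fell from 19.1 ± 1.49 to 12.7 ± 0.452 CPM (-0.59, edgeR adjusted p = 0.0110; SD, n = 3 each). The calls of Slc22a4, Slc22a5 and Slc22a15 ended on leaving out any 1 of knockout libraries 1 and 3 and wild-type library 2, and those of Slc22a4 and Slc22a5 also on leaving out wild-type library 3 (edgeR adjusted p up to 0.0857).

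None of the 19 Golgi and endoplasmic reticulum transporters of nucleotide sugars and their orphan relatives, all of the Slc35 family, was called by edgeR. Over all tested genes 15.2% were. The other tools also called 0 of the 19, where DESeq2, voom and limma on FPKM called 19.6%, 15.0% and 11.5% of all genes. At an unadjusted p under 0.05, 1 was higher and 2 were lower, where 31.0% of all tested genes had such a p. The 19 had a median log2 fold change of 0.01 and a range of -0.31 to 0.55. The upper end was Slc35d2, with an edgeR adjusted p = 0.0687. Without knockout library 2 and wild-type library 1, the pair that stood farthest from their groups, 7 of the 19 were called, in a fit where 51.0% of all genes were.

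**Figure D3:**
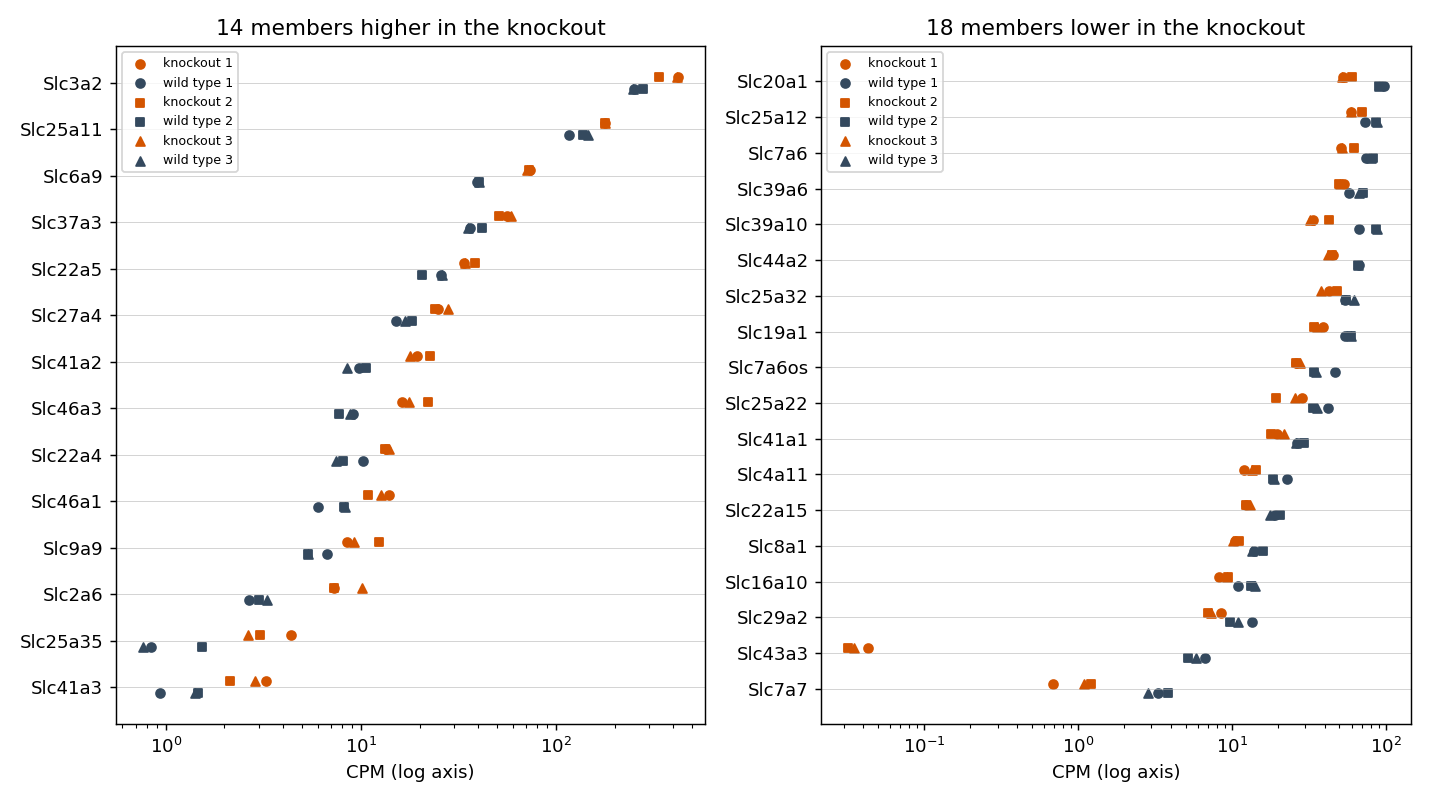
CPM (log axis) of every called member in each of the 6 libraries, 14 higher genes at the left and 18 lower genes at the right, ordered by mean level; marker shape gives the library number within its group. The groups do not overlap in any of the 32 genes, which were picked by their call, and Slc43a3 shows the widest gap. Of all tested genes, 36.6% had no overlap.

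Start regions of 4 genes that rose, picked after their values were seen, are shown: Slc22a4 and Slc22a5 because they are neighbours that both rose, and Slc46a3 and Slc41a2 because they were among the largest rises. RefSeq start regions on GRCm38.p6 were matched by symbol for 143 of the 182 members. Each sequence below is the 250 bases before the start, 5′ to 3′ on the gene's strand, with motif matches in capitals. Slc22a4 is chr11:54028105-54028354, Slc22a5 chr11:53891704-53891953, Slc46a3 chr5:147894816-147895065 and Slc41a2 chr10:83337818-83338067, all on the minus strand; these positions are on another annotation than the table's and are not to be set beside its coordinates.
Slc22a4: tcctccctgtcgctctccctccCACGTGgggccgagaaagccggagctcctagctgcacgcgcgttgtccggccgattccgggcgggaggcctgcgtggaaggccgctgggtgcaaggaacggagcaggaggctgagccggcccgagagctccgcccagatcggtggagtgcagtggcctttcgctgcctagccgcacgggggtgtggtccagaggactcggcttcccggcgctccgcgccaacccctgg
Slc22a5: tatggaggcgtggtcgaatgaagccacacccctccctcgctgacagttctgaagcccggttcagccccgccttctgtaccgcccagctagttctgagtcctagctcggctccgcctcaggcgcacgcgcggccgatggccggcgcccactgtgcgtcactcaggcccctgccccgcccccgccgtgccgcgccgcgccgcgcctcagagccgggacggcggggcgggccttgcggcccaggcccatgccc
Slc46a3: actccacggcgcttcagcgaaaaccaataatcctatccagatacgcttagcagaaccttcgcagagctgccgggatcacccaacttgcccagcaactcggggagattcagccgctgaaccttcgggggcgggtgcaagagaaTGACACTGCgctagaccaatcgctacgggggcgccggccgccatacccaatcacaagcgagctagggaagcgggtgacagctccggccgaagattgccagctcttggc
Slc41a2: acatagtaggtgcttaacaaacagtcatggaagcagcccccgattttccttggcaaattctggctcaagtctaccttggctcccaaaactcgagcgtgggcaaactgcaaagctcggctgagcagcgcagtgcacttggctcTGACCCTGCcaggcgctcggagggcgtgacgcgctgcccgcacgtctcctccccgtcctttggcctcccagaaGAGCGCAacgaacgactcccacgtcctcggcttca
Motifs were searched on both strands of this window: TGATGNAA, bound by ATF4 with a C/EBP partner, CACGTG, the E-box, TGACNNNGC, the core of the antioxidant response element, and TGCGCNC, a core of the metal response element. CACGTG lay in Slc22a4 from 228 to 223 bases before the start, TGACNNNGC in both Slc46a3 and Slc41a2 from 108 to 100 bases before it, and TGCGCNC in Slc41a2 from 35 to 29 bases before it. These matches did not overlap each other, and in Slc22a5 none of the 4 was found. Over the 143 members, CACGTG was in 13.3%, against 8.22% of the 10080 start regions of tested genes. TGACNNNGC was in 13.3% against 11.8%, TGCGCNC in 18.2% against 22.1% and TGATGNAA in 2.10% against 1.88%. Of 13 called higher and 14 called lower members with a sequence, TGACNNNGC was in 2 and 0, CACGTG in 2 and 1, TGCGCNC in 2 and 3, and TGATGNAA in 1 and 0. A match is a description of letters, not of a bound site. Start regions of higher and lower members had a median GC content of 60.0% and 63.2% and a median of 18 and 16 CpG dinucleotides, against 60.0% and 16 for tested genes. Over the transcripts, median GC was 53.3% in higher and 48.1% in lower members, beside 51.4% and 48.3% in all higher and all lower genes and 49.6% in all tested genes.

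Partners and relatives of these transporters were examined from a pair of lists. Of 34 tested genes that belong to solute carrier families under other symbols, 3 rose, 5 fell and 26 did not pass (edgeR quasi-likelihood test; median log2 fold change -0.05), beside 15.2% of all tested genes called. Leaving out 1 library moved the 8 calls of this list to 3 (knockout 1 or 3), 12 (knockout 2), 5 (wild type 1), 4 (wild type 2) or 2 (wild type 3). Without knockout 1, 2 or 3, 5.62%, 28.1% and 5.43% of all genes were called. Without wild type 1, 2 or 3, the shares of all genes were 13.5%, 6.07% and 5.28%. Ucp2, a mitochondrial carrier, rose from 1.07 ± 0.124 to 3.35 ± 0.284 CPM (1.64, edgeR adjusted p = 0.00417). The organic anion transporter gene Slco5a1 fell from 8.45 ± 0.357 to 3.89 ± 0.452 CPM (-1.11, edgeR adjusted p = 0.00357) and Flvcr1, a choline and heme transporter, from 36.1 ± 1.56 to 24.5 ± 2.41 CPM (-0.56, edgeR adjusted p = 0.0113). Of 29 tested partners and regulators, 2 of them also members, 3 rose, 2 fell and 24 did not pass (median 0.10), beside 15.2% of all tested genes called. Leaving out 1 library moved these 5 calls to 2 (knockout 1 or 3, wild type 2), 3 (wild type 3) or 8 (knockout 2), with 5 again without wild type 1. The shares of all genes in those fits are the ones given for the first list. Stk39, which encodes the kinase SPAK that controls cation-chloride cotransporters, fell from 33.0 ± 4.76 to 19.0 ± 0.415 CPM (-0.80, edgeR adjusted p = 0.00513). Txnip, an arrestin that promotes removal of glucose transporters from the surface, rose from 103 ± 6.80 to 159 ± 14.3 CPM (0.63, edgeR adjusted p = 0.00620), and Arl6ip1 from 188 ± 20.3 to 264 ± 1.43 CPM (0.49, edgeR adjusted p = 0.0151; SD, n = 3 each).

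The authors' deposited table calls 33 of the 182 members under an adjusted p of 0.05, of which 18 were higher and 15 lower, and 29 of them were called here in the same direction. The authors' deposited table adds Slc38a10, Slc6a17, Slc4a2 and Slc9a3r1, all higher, and leaves out Slc16a10, Slc8a1 and Slc39a6. Of the 32 called members, 10 kept their call and direction in all 18 alternative fits: Slc43a3, Slc6a9, Slc7a7, Slc20a1, Slc39a10, Slc41a2, Slc2a6, Slc19a1, Slc44a2 and Slc46a3; of these Slc43a3 was chosen for its difference. The other 22 lost it when at least 1 single library was left out, and 0 changed direction.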

How the data were processed

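RNA was measured by RNA-seq in 3 Matr3 knockout and 3 wild-type libraries, grouped by sample titles. The authors deposited 1 table with raw counts per gene, whole numbers used here unchanged. FPKM in the authors' table equals the count per gene length and per a library size 0.970 to 1.05 times the total. The authors' own comparison holds a signal (the mean scaled count per group), which was not used for any test. Its log2 fold changes and its p-values are as deposited, from a tool the labels and headers do not name, and are quoted only for members. Per the submitters' processing notes the build is GRCm38 (mm10). All 182 members are in GENCODE M21 of GRCm38, but 4 have the same coordinates there, so the build of the table's coordinates was not settled and they are given as they stand. The aligner, counter, annotation and strand setting were not given in the sources used here.

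Testing used edgeR 4.0.16 (R 4.3.3): filterByExpr (14842 genes), TMM, quasi-likelihood F test of knockout against wild type without covariates, Benjamini-Hochberg adjustment over all tested genes, calls under 0.05. Each log2 fold change sets knockout against wild type, its SE follows from the F statistic, and CPM uses TMM-scaled libraries. Alternatives used DESeq2 1.42.0, limma 3.58.1 (voom, or log2(FPKM + 1) with a mean of at least 0.5 FPKM), other scalings and filters, the replicate block, left-out libraries and removal of each library's GC trend by lowess (span 0.3; GC of the longest GENCODE M21 transcript, for 182 of 182 members). Scripts were tested on simulated data.

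Named were Slc43a3, the 8 largest rises and 8 largest falls at a mean of at least 5 CPM, up to 2 called members of smallest p and the most abundant member of each substrate group, up to 3 called genes per partner list, and the genes nearest the threshold. The members and lists were chosen with earlier results of these data known. The 4 genes that are not transporters were moved to a group of their own after the files were seen.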

Additional observations from a re-analysis of the deposited data

How the results depend on the processing

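Over 18 alternative fits and the stricter threshold, 0 called members changed direction; among named members that did not pass, Slc20a2 turned from -0.04 to at most 0.0055. Leaving out 1 library gave 807 to 4295 calls over all genes, 11 to 50 members, 4 to 26 higher and 6 to 24 lower. Without knockout library 2 and wild-type library 1 together there were 7556 calls and 92 members (49 higher, 43 lower). This fit leaves out the library most often farthest from its group on each side, and the knockout libraries it keeps follow GC content at 0.26. At an adjusted p under 0.01 there were 721 calls and 10 members (4 higher, 6 lower). On log2(FPKM + 1), a scale that understates changes of low genes, limma called 19 members, 9 of them lower. The labels do not say that replicate numbers pair the libraries. Deviations of same-numbered libraries from their group means correlated at 0.17, -0.03 and -0.20. With so few libraries in a group, these values cannot decide whether same-numbered libraries shared a culture or day. With the replicate block 23 members were called, 11 lower, and with the GC trend removed as well, 31; without the block the GC correction gave 39, ending the calls of Slc25a11 and Slc8a1. DESeq2 called 38 and limma voom 30. The members' median log2 fold change stayed between -0.01 and 0.05, changing sign without knockout library 2 and with the GC trend removed. A minimum of 75 or 300 counts gave 197 or 178 members. Calls per group ranged from 2 to 14 for amino acids, 0 to 20 for mitochondrial carriers, 2 to 13 for metals, 1 to 14 for inorganic ions, 3 to 7 for vitamins, 1 to 6 for sugars, 0 to 7 for nucleotide sugars, 0 to 5 for organic ions, 1 to 3 for nucleosides, 0 to 1 for lipids, 0 to 2 for the genes that are not transporters and 0 to 0 for the others. Over the 18 alternative fits the share of all genes called ran from 5.28% to 51.0%. The cause of these moves was not tested. Of the 23 members under 1 FPKM 5 were called, beside 15.2% of all tested genes at any level. The share among all genes under 1 FPKM was not counted, and how depth limits calls at each level was not tested.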
